A study of Mus musculus with 79 samples.

Results

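Glutamate is the main excitatory transmitter of the brain, and 31 genes of its receptors and transporters were followed here in the adult mouse hypothalamus. They were chosen by gene symbol from the table of expression values, where each of the 31 has 1 row among 25965, and no measured value was used in the choice. They comprise 4 AMPA receptor subunits (Gria1 to Gria4), 5 kainate receptor subunits (Grik1 to Grik5), 7 NMDA receptor subunits (Grin1, Grin2a to Grin2d, Grin3a and Grin3b), the delta receptor subunit Grid1, 7 metabotropic receptors (Grm2 to Grm8), 3 vesicular transporters (Slc17a6, Slc17a7 and Slc17a8) and 4 plasma membrane transporters (Slc1a1, Slc1a2, Slc1a3 and Slc1a6). RNA-seq was available from the hypothalamus of 5 +/+ and 4 Dnmt3a Δ/D329A mice, and native ChIP-seq of H3K4me3, H3K27me3, H3K36me3 and input from 3 animals of each genotype. All animals were adults of 14 weeks on a C57BL/6 background, and each library came from 1 animal. The paper calls the RNA-seq animals female in a supplementary legend and male in a main legend, which calls the ChIP-seq animals male. The sex of the RNA-seq animals is therefore not settled here. D329A is a point mutation in the PWWP domain of the DNA methyltransferase Dnmt3a, a domain that binds methylated lysine 36 of histone H3. Δ is an allele that lacks exon 18, deleted in the oocyte with Zp3-Cre, so the Δ/D329A mice carried the mutation beside an allele without that exon in every tissue, while the +/+ mice carried neither. The comparison asks whether these genes differed in expression or in the 3 histone marks between the genotypes.

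AMPA, kainate and NMDA receptors are ion channels opened by glutamate. AMPA receptors carry most of the fast current, NMDA receptors also need glycine or D-serine and pass calcium, and kainate receptors act on both sides of the synapse. Metabotropic receptors signal through G proteins. Vesicular transporters load glutamate into synaptic vesicles and so mark the neurons that release it, whereas plasma membrane transporters, above all those of astrocytes, clear it from the cleft. H3K4me3 marks the starts of active genes, H3K27me3 is the repressive mark of the Polycomb complex PRC2, and H3K36me3 lies over the bodies of transcribed genes.

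The promoters of the genes differ in their content of CG dinucleotides, the bases that Dnmt3a methylates, and 6 of them are shown because they cover the range of H3K27me3 and expression met below. Each runs from 250 bases before to 50 after the RefSeq start in GRCm38.p6, is written 5′ to 3′ on the strand of the gene, and has its CG dinucleotides in capitals.
Grm6, chr11:50850435-50850734, plus strand: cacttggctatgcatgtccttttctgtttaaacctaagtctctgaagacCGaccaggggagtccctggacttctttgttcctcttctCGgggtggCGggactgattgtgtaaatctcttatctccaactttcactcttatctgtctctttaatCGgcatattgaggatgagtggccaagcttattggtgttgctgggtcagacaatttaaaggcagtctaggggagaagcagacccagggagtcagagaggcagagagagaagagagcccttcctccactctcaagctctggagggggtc
Grin3b, chr10:79970474-79970773, plus strand: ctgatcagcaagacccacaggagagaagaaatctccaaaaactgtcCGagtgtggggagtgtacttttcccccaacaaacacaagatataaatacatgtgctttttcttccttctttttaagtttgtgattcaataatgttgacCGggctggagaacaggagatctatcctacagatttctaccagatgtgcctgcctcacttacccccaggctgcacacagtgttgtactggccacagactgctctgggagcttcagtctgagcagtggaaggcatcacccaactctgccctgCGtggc
Slc17a8, chr10:89621200-89621499, minus strand: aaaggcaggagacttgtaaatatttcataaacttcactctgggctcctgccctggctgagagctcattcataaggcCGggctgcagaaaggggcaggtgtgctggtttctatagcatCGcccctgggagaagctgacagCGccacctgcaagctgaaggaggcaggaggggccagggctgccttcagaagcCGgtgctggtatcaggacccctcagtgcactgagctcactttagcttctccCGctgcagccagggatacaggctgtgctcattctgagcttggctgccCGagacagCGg
Slc1a3, chr15:8710758-8711057, minus strand: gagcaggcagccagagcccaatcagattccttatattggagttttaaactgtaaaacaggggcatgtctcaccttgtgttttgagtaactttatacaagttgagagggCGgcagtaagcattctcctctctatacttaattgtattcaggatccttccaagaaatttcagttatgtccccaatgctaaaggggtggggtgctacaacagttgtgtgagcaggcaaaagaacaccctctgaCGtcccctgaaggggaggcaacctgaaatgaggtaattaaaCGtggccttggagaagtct
Gria2, chr3:80802786-80803085, minus strand: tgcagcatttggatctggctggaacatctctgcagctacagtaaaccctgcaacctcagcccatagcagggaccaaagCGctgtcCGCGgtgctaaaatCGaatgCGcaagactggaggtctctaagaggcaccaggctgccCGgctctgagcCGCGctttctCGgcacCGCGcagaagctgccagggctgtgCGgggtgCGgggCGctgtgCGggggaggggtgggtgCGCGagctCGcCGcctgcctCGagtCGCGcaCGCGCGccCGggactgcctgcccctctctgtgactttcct
Grik3, chr4:125490446-125490745, plus strand: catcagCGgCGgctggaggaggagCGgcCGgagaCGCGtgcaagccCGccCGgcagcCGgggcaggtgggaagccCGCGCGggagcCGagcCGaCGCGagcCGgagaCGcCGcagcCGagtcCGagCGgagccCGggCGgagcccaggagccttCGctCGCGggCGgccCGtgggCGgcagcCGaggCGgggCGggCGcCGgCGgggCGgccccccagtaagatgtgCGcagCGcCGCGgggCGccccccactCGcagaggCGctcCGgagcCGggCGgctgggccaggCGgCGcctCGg
The first 4 are poor in CG, with 4 CG in Grm6, 3 in Grin3b, 7 in Slc17a8 and 3 in Slc1a3. The promoter of Gria2 held 26 and that of Grik3 held 50.

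The libraries set limits that touch every value. The RNA-seq libraries held 5617932 to 9976687 reads on genes in +/+ and 3874084 to 6598737 in Δ/D329A, and the ChIP-seq libraries 12676361 to 30207875 uniquely mapped reads. The median of the genes tested ran from 0.81 to 1.49 log2 RPKM (log2 of reads per kilobase of exon, scaled to library size) over the +/+ libraries and from 0.91 to 1.22 over the Δ/D329A libraries. The +/+ replicates 4 and 5 had the lowest +/+ medians and stood low for many of the 31 genes. Dnmt3a expression was 1.71 to 2.11 log2 RPKM in +/+ and 1.51 to 1.72 in Δ/D329A, which cannot check the genotypes because the values do not separate the alleles. The markers of hypothalamic neurons were present in every library, with a summed level of 360 to 749 RPKM in +/+ and 420 to 628 in Δ/D329A. Markers of neighbouring tissue varied between animals, and thalamic markers summed to 3.86 to 7.19 RPKM in +/+ and 5.76 to 15.6 in Δ/D329A. Cortical markers were low, at 0.557 to 1.11 RPKM in +/+ and 0.948 to 1.38 in Δ/D329A. In whole tissue, fewer cells of a type and less RNA per cell cannot be told apart.

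The hypothalamus expressed almost the whole set. The median of the 31 genes in +/+ was 2.67 log2 RPKM, against 1.09 over all genes tested, and 29 of the 31 genes passed the filter of 0.1 RPKM in at least 4 libraries. Grm6 and Grin3b did not pass. The order was led by Slc1a2, the glial transporter that clears most of the released glutamate. Its values were 6.69, 6.72, 6.60, 6.40 and 6.23 log2 RPKM in the 5 +/+ libraries and 6.37, 6.01, 6.13 and 6.41 in the 4 Δ/D329A libraries. This placed Slc1a2 at the 99.6th percentile of genes in +/+, and it lay above the next gene, Gria1, in 5 of 5 +/+ libraries by 1.10 ± 0.16 (SD, n = 5). Behind Gria1, the transporter Slc1a3, the vesicular transporter Slc17a6 and the AMPA subunit Gria2 followed in steps of 0.02 and 0.03 on the log2 scale, and their order changed from library to library. The next step down, from Gria2 to Grm5, was 1.14 ± 0.09 (SD, n = 5) and held in 5 of 5 libraries. Most neighbours below it differed by less than their spread. The last steps were again large, with Slc17a7 above Slc17a8 by 1.84 ± 0.31 and Slc17a8 above Grin3b by 3.47 ± 0.94 (SD, n = 5 each).

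**Figure D1:**
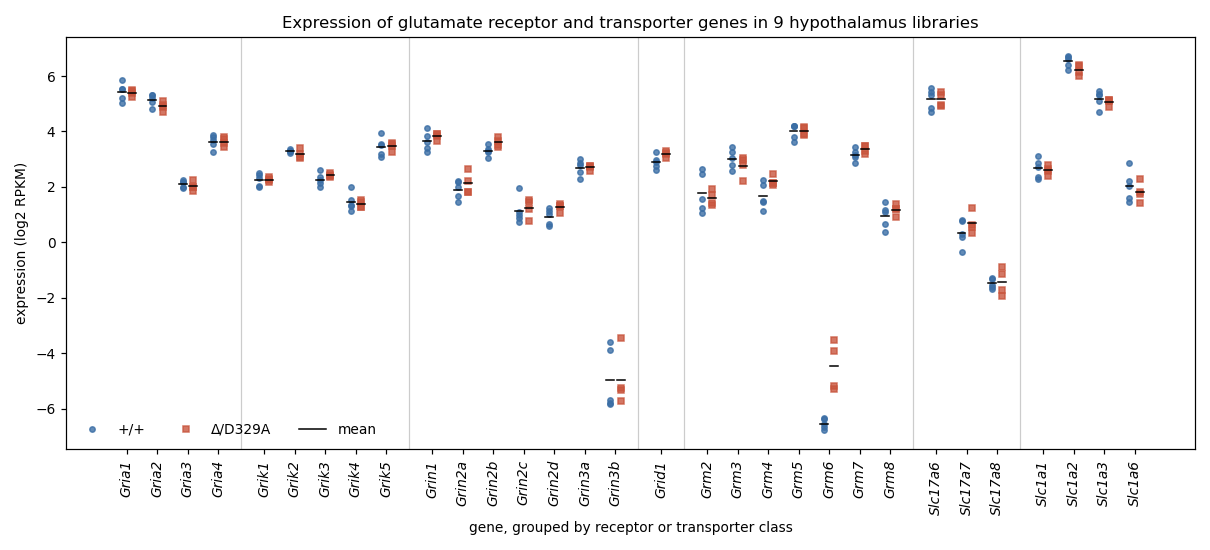
Expression in log2 RPKM (vertical axis) of the 31 genes (horizontal axis, grouped by class), with 1 point per library for 5 +/+ and 4 Δ/D329A animals and a bar at each mean. Slc1a2 is highest at 6.01 to 6.72, Grm6 and Grin3b lie far below the rest, and the genotypes overlap in every gene but Grm6.

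Among the AMPA subunits, Gria1 was highest and Gria3 lowest. Gria1 stood at 5.86, 5.54, 5.54, 5.20 and 5.03 log2 RPKM in +/+ and at 5.51, 5.25, 5.39 and 5.47 in Δ/D329A. All Δ/D329A values lay inside the +/+ range, and the difference (Δ/D329A minus +/+) was −0.03 with a 95% interval of −0.44 to 0.38. Gria3 stood at 1.95, 2.25, 2.01, 2.18 and 2.18 in +/+ and at 1.87, 1.99, 2.0 and 2.25 in Δ/D329A, so that the groups overlapped again. Gria2, the subunit that makes AMPA receptors impermeable to calcium, read 5.30, 5.30, 5.21, 5.08 and 4.82 in +/+ and 4.97, 4.69, 4.87 and 5.08 in Δ/D329A. Its difference was −0.24 (95% interval −0.58 to 0.10, limma adjusted p = 0.528). Gria4 differed by 0.01. Thus 3 of 4 AMPA subunits had a negative difference, and all 4 had one under median centring, quantile normalization, edgeR and DESeq2.

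Kainate subunits were led by Grik5, one of the high-affinity subunits, at 3.93, 3.18, 3.52, 3.07 and 3.55 log2 RPKM in +/+ and 3.60, 3.49, 3.56 and 3.25 in Δ/D329A. The other high-affinity subunit, Grik4, was the lowest at 1.99, 1.30, 1.51, 1.11 and 1.33 in +/+ and 1.45, 1.29, 1.53 and 1.29 in Δ/D329A. In both genes the Δ/D329A values fell within the +/+ range. The differences of the 5 kainate subunits ran from −0.11 in Grik2 to 0.16 in Grik3.

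The obligatory NMDA subunit Grin1 had the highest level of its class, at 4.11, 3.61, 3.84, 3.25 and 3.39 log2 RPKM in +/+ and 3.90, 3.65, 3.82 and 3.90 in Δ/D329A. All 4 mutant values lay above the +/+ median without leaving the +/+ range, and the difference was 0.18 (95% interval −0.22 to 0.58). The glutamate-binding subunit Grin2b read 3.56, 3.27, 3.29, 3.03 and 3.35 in +/+ and 3.82, 3.52, 3.43 and 3.66 in Δ/D329A. Only +/+ replicate 1 reached into the Δ/D329A range, and the difference was 0.31 (95% interval −0.01 to 0.62, limma adjusted p = 0.355, and 0.0397 by an exact permutation test without adjustment). Grin2d differed by 0.33 (limma adjusted p = 0.392) and Grin2a by 0.22. Grin2c, which astrocytes and some relay neurons use, read 1.95, 0.97, 1.10, 0.74 and 0.89 in +/+ and 1.52, 0.76, 1.44 and 1.19 in Δ/D329A, with overlap. Of the 6 NMDA subunits tested, all 6 had a positive difference (median 0.20) and none passed the test. Under median centring, quantile normalization, edgeR and DESeq2 the count was 5 of 6, because Grin3a, at 0.003, changed sign. Grin3b, a glycine-binding subunit known from motor neurons, was near the limit of detection. It had 5, 0, 3, 1 and 1 reads in +/+ and 0, 0, 4 and 0 in Δ/D329A, a ratio of 0.654 (95% interval 0.150 to 2.27, counting error only). Its deposited values were −3.60, −5.84, −3.88, −5.68 and −5.80 log2 RPKM in +/+ and −5.74, −5.27, −3.45 and −5.35 in Δ/D329A, with each library without a read set by the authors to the value of 0.9 reads. Tmem259 overlaps Grin3b on the other strand in the annotation. The paper describes a strand-specific library kit, but whether the deposited values count only reads of the gene's own strand was not tested.

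Grid1, a delta receptor subunit that binds cerebellins at the synapse, read 3.25, 2.88, 2.95, 2.63 and 2.74 log2 RPKM in +/+ and 3.21, 3.05, 3.18 and 3.29 in Δ/D329A. Apart from +/+ replicate 1, every +/+ value lay below every Δ/D329A value. The difference was 0.29 (95% interval −0.03 to 0.61, limma adjusted p = 0.359).

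Of the metabotropic receptors, Grm5, which couples to phospholipase C, was highest at 4.20, 4.19, 4.18, 3.82 and 3.63 log2 RPKM in +/+ and 4.15, 3.88, 3.92 and 4.13 in Δ/D329A. These values overlapped throughout. Grm4, an inhibitory presynaptic receptor, read 2.24, 1.45, 2.08, 1.12 and 1.49 in +/+ and 2.47, 2.07, 2.16 and 2.14 in Δ/D329A. The Δ/D329A values lay at the upper end, with +/+ replicates 1 and 3 among them. Its difference of 0.53 (95% interval 0.03 to 1.04) was the largest among the 29 genes tested, at a limma adjusted p of 0.355, an edgeR adjusted p of 0.078, a DESeq2 adjusted p of 0.036 and an exact permutation p of 0.103 without adjustment. Grm2 and Grm3, the autoreceptors that inhibit cyclic AMP, differed by −0.19 and −0.26, with 95% intervals of −0.92 to 0.55 and −0.75 to 0.22. Grm7 differed by 0.19 and Grm8 by 0.22.

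Grm6, the receptor of retinal ON bipolar cells, was the gene with the fewest reads and the one gene of the set whose groups did not overlap. It had 0, 0, 0, 1 and 0 reads in the +/+ libraries and 2, 5, 2 and 4 reads in the Δ/D329A libraries. Every Δ/D329A library thus held more reads than every +/+ library, although the Δ/D329A libraries had fewer reads in general. Relative to library size the sum was 21.2 times higher in Δ/D329A (95% interval 3.19 to 903 from counting error alone). Two-sided and without adjustment, the exact permutation p was 0.00794, the smallest that 5 against 4 allows. As deposited, with libraries without a read at the floor, Grm6 stood at −6.79, −6.56, −6.33, −6.39 and −6.67 log2 RPKM in +/+ and at −5.31, −3.51, −5.17 and −3.91 in Δ/D329A. It was below the filter of limma and of edgeR, and the DESeq2 adjusted p was 0.068. The annotation has a noncoding antisense transcript within Grm6, so the strand of these 13 reads is a limit of the value. Among all genes tested, which leave out Grm6, groups without overlap made up 3.0%, and 0 of the 29 members tested had them. Genes below the filter were not counted, so this share does not say how unusual Grm6 is.

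Slc17a6, the usual vesicular form of hypothalamic neurons, was far above the other 2 vesicular transporters. It read 5.58, 5.30, 5.42, 4.84 and 4.70 log2 RPKM in +/+ and 5.41, 4.93, 4.95 and 5.33 in Δ/D329A. The groups shared their range, and the difference was −0.01 (95% interval −0.49 to 0.46). Slc17a7, the form of cortical neurons, read 0.78, −0.35, 0.81, 0.30 and 0.20 in +/+ and 1.23, 0.34, 0.55 and 0.64 in Δ/D329A. It differed by 0.34 (95% interval −0.26 to 0.94), beside cortical markers of which 5 of 6 were in the table and 3 were tested. Tbr1 among them differed by 1.97 (limma adjusted p = 0.119). The part of cortical tissue in the Slc17a7 value was not tested. Slc17a8, found in scattered neurons that release other transmitters as well, had only 13 to 37 reads per library. It read −1.31, −1.68, −1.28, −1.55 and −1.61 log2 RPKM in +/+ and −0.90, −1.93, −1.72 and −1.13 in Δ/D329A. The Δ/D329A libraries held both the highest and the lowest value, and the ratio of summed reads, relative to library size, was 1.13 (95% interval 0.855 to 1.48, counting error only).

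All 4 plasma membrane transporters had a negative difference, under the deposited scaling and under median centring, quantile normalization, edgeR and DESeq2. The AMPA subunits did so too under the latter 4. None of the 4 passed the test, and their median was −0.16. Slc1a2, whose values stand above, had 2 of 4 Δ/D329A values inside the +/+ range and 2 below it, with a difference of −0.30 (95% interval −0.71 to 0.10, limma adjusted p = 0.482, exact permutation p = 0.0635). DESeq2 gave an adjusted p of 0.028 and edgeR 0.104. Slc1a3, the other astrocytic transporter, differed by −0.11 and the neuronal Slc1a1 by −0.08. Slc1a6, known from Purkinje cells, was the lowest of the class at 2.86, 2.01, 2.21, 1.61 and 1.46 in +/+ and 1.75, 1.425, 2.29 and 1.82 in Δ/D329A. The astrocyte markers did not run the same way, with 1 of 6 lower in Δ/D329A and a summed level of 107 to 162 RPKM in +/+ and 111 to 192 in Δ/D329A.

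No member was called in expression. At the limma threshold of an adjusted p under 0.01, 0 of 29 genes tested passed, where 0.107% of all 17839 genes did, and edgeR and DESeq2 on reads recovered from the deposited values called 0 members where they called 0.554% and 1.56% of all genes. At an unadjusted p under 0.05, limma held 1 of the 29 genes, Grm4, against 7.62% of all genes. The median difference of the 29 genes was 0.01, against 0.06 over all genes, with 12 of 29 lower in Δ/D329A against 40.4% of all genes. The 95% intervals of the 29 genes lay between −0.92 (Grm2) and 1.04 (Grm4), each for its own gene and without adjustment. They are not a joint bound on what these 9 libraries could have missed. Grm6 and Grin3b, which were not tested, have no such interval.

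**Figure D2:**
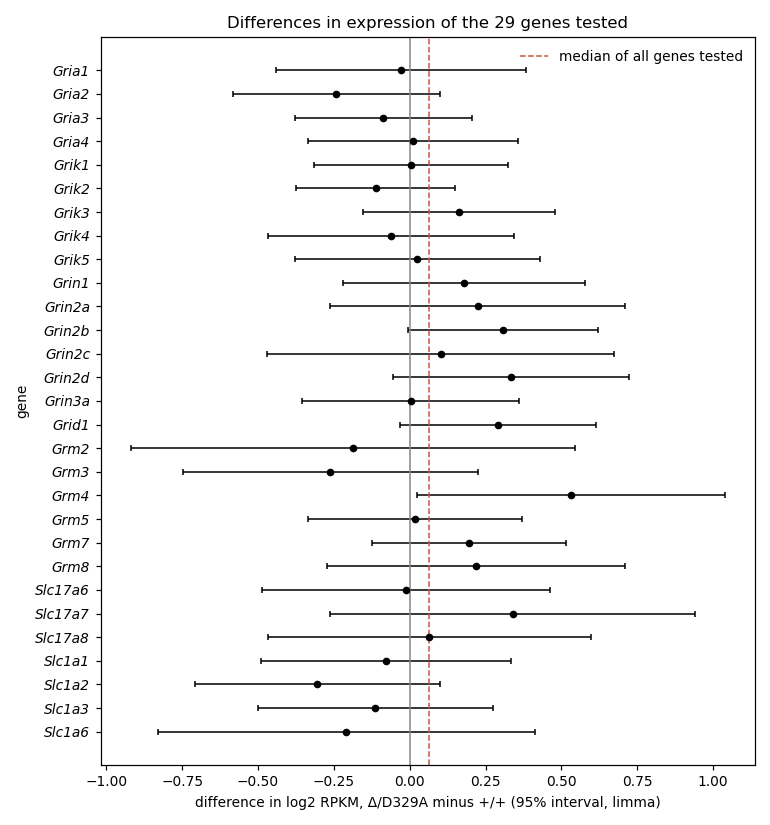
Difference in log2 RPKM between Δ/D329A (n = 4) and +/+ (n = 5) for the 29 genes tested (vertical axis, by class), with 95% limma intervals as bars and the median of all genes tested as a dashed line. The interval of Grm4, 0.03 to 1.04, is the only one that leaves out 0, before adjustment.

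The partners of these receptors were examined by list, and none was called at an adjusted p under 0.01. Of 14 auxiliary subunits tested, 6 were lower in Δ/D329A (median 0.04). Neto1, an auxiliary subunit of kainate receptors, stood at 1.73 to 2.08 log2 RPKM in +/+ and at 1.36 to 1.46 in Δ/D329A without overlap, a difference of −0.53 (SE 0.13, limma adjusted p = 0.234, DESeq2 adjusted p = 0.028). Shisa6, which slows the desensitization of AMPA receptors, differed by 0.42 (limma adjusted p = 0.412). Of 20 postsynaptic scaffold genes, 3 were lower (median 0.20), and the PSD-95 binding proteins Dlgap3 and Dlgap1 differed by 0.55 and 0.35, each at a limma adjusted p of 0.355. Of 10 genes of glutamate and glutamine metabolism, 7 were lower (median −0.12). They included Gls2, a glutaminase, at −0.51 (limma adjusted p = 0.355), and the glutamine transporter Slc38a3 at −0.23 (limma adjusted p = 0.682). Of 3 cerebellins tested, the ligands of delta receptors, 2 were lower, with Cbln4 at −0.49 (limma adjusted p = 0.355) and Cbln1 at 0.28 (limma adjusted p = 0.582).

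The closest to the threshold was Dao, the enzyme that degrades D-serine, in a list of 6 genes that supply or remove the co-agonists of the NMDA receptor. Dao read −2.90, −3.66, −4.02, −3.24 and −4.36 log2 RPKM in +/+ and −1.35, −1.87, −1.21 and −1.76 in Δ/D329A. Each Δ/D329A value lay above each +/+ value, by reads of 6, 3, 2, 4 and 2 in +/+ and 14, 7, 14 and 8 in Δ/D329A. The difference was 2.09 (SE 0.30) at a limma adjusted p of 0.0201, which misses the threshold of 0.01, and the exact permutation p was 0.00794. Over 19 ways of fitting, the difference ran from 0.31 (with 1 RPKM added before the log) to 2.28. The adjusted p ran from 0.00083 to 0.0867 and was under 0.01 in 2 of the fits (median centring and library weights). Dao lies at chr5:114003703-114025449 of GRCm38, and none of the 3 marks was called at its promoter or body. Of the other 5 genes of the list, Slc7a10, a carrier of D-serine and glycine, was next at −0.56 (limma adjusted p = 0.355), and 4 of all 6 were lower.

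Chromatin was compared as the mean RPM (reads per tile of 2000 bp, scaled to uniquely mapped reads) over a promoter, from 1500 bp before to 500 bp after the deposited start, or over the gene body from there to the end. In +/+ the promoters of the 31 genes carried more H3K4me3 than most, with a median of 19.0 RPM against 5.67 over all genes, and also more H3K27me3, with 0.974 RPM against 0.484. Promoter input had a median of 0.772 RPM for the 31 genes and 0.790 over all, so the 0.484 RPM lay below input. The bodies of the 31 genes had a median H3K36me3 of 0.946 RPM against 0.791. In no mark and no region was a member called at a limma adjusted p under 0.05. Over all genes this fit called 0% of promoters for H3K4me3, 0% for H3K27me3 and 0.0231% for H3K36me3, and of bodies 0%, 0.00846% and 0%, so that a count of 0 among 31 genes says little. In simple counts, unadjusted p under 0.05 held for 2 H3K4me3 (Grm6 and Grin3b), 4 H3K27me3 (Gria3, Grin2a, Grin3b and Grm3) and 2 H3K36me3 promoters (Gria3 and Grm6) of the 31, where 3.47%, 8.90% and 6.58% of all promoters had it, and for 1 body in each mark (Grik5, Slc1a3 and Gria2 in this order), where 3.53%, 13% and 16.1% of all bodies had it. With 3 animals a genotype, an exact permutation test of 1 gene cannot go below p = 0.1.

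**Figure D3:**
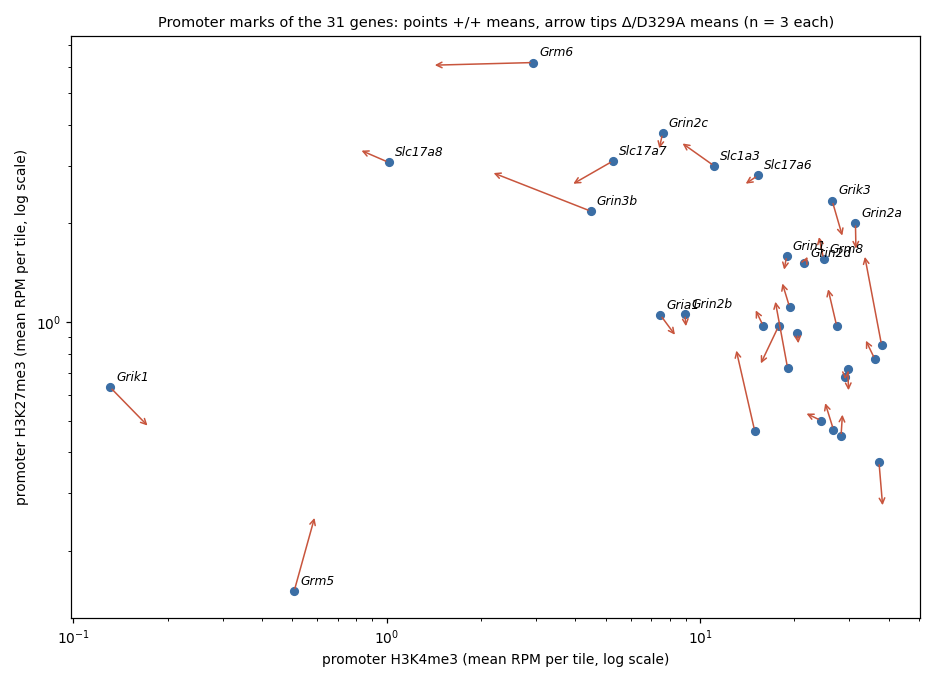
Promoter H3K4me3 (horizontal, RPM, log scale) against promoter H3K27me3 (vertical, RPM, log scale) of the 31 genes, with points at the +/+ means and arrow tips at the Δ/D329A means (n = 3 each). The 2 long arrows to the left are Grm6 and Grin3b, and Grik1 and Grm5 lie apart because their deposited starts are not where H3K4me3 peaks.

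H3K4me3 was lower in Δ/D329A at 25 of 31 promoters, but 69.9% of all promoters were lower too. The median difference was −0.12 for the 31 genes and −0.07 for all. Median centring moved the median of all promoters to 0.14 and left 9 of 31 lower, so only differences that stand apart from the rest are described. Grm6 and Grin3b were those. Grm6 had 2.78, 3.03 and 2.99 RPM in +/+ and 0.784, 2.33 and 1.06 RPM in Δ/D329A. The groups did not overlap, which held for 1 of 31 members against 6.06% of all promoters. The difference was −1.16 on the log2 scale (SE 0.42, limma adjusted p = 1). Grin3b had 3.04, 5.19 and 5.22 RPM in +/+ and 1.32, 3.35 and 1.77 in Δ/D329A, with replicate 2 of Δ/D329A above replicate 1 of +/+. Its difference was −1.09 (SE 0.41, limma adjusted p = 1).

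How these 2 promoters were judged depended on which promoters were tested with them. When promoters under 0.2 RPM were left out, the differences stayed the same and the limma adjusted p became 0.0122 for Grm6 and 0.00603 for Grin3b, in a fit that called 1.35% of 19907 promoters and 1.10% as lower. By edgeR, which used only the reads of the tile nearest the start, the adjusted p values were 0.368 and 0.216. The H3K4me3 libraries fell into 2 sets by mitochondrial coverage, at 14.8 to 19.2 RPM in +/+ replicates 1 and 2 and Δ/D329A replicate 1, and at 29.5 to 44.6 RPM in the others. The H3K27me3 libraries split in the same way, and the H3K36me3 and input libraries did not. Within the first set, replicate 1 of Δ/D329A was below replicates 1 and 2 of +/+ for both genes, and within the second replicates 2 and 3 of Δ/D329A were below replicate 3 of +/+. A fit with these sets as a block gave −1.32 for Grm6 and −1.29 for Grin3b, both at a limma adjusted p of 0.515. Without replicate 1 of Δ/D329A, which had low H3K4me3 at strong promoters in general, the differences were −0.85 and −0.81.

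The tiles around the starts show where the difference lay. At its highest tile near the start, Grm6 had 4.43, 4.92 and 4.73 RPM in +/+ and 1.07, 4.26 and 1.87 in Δ/D329A, so that replicates 1 and 3 of Δ/D329A were low and replicate 2 was near +/+. At the neighbouring H3K4me3 peak 9.68 kb upstream, the same libraries had 11.6, 12 and 13.2 RPM in +/+ and 9.34, 14.6 and 13.1 in Δ/D329A. Grin3b repeated this, with 3.60, 6.45 and 6.57 RPM in +/+ and 1.51, 3.79 and 2.26 in Δ/D329A at the start, and 17.7, 19.4 and 19.97 against 14.0, 20.4 and 19.2 RPM at a peak 9.71 kb upstream. Input over either promoter did not pass the test (limma adjusted p = 0.949 and 0.948). Grm6 and Grin3b are the 2 genes of the set with the lowest expression, and their H3K4me3 was lower in Δ/D329A while the reads of Grm6 were more and those of Grin3b were not.

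**Figure D4:**
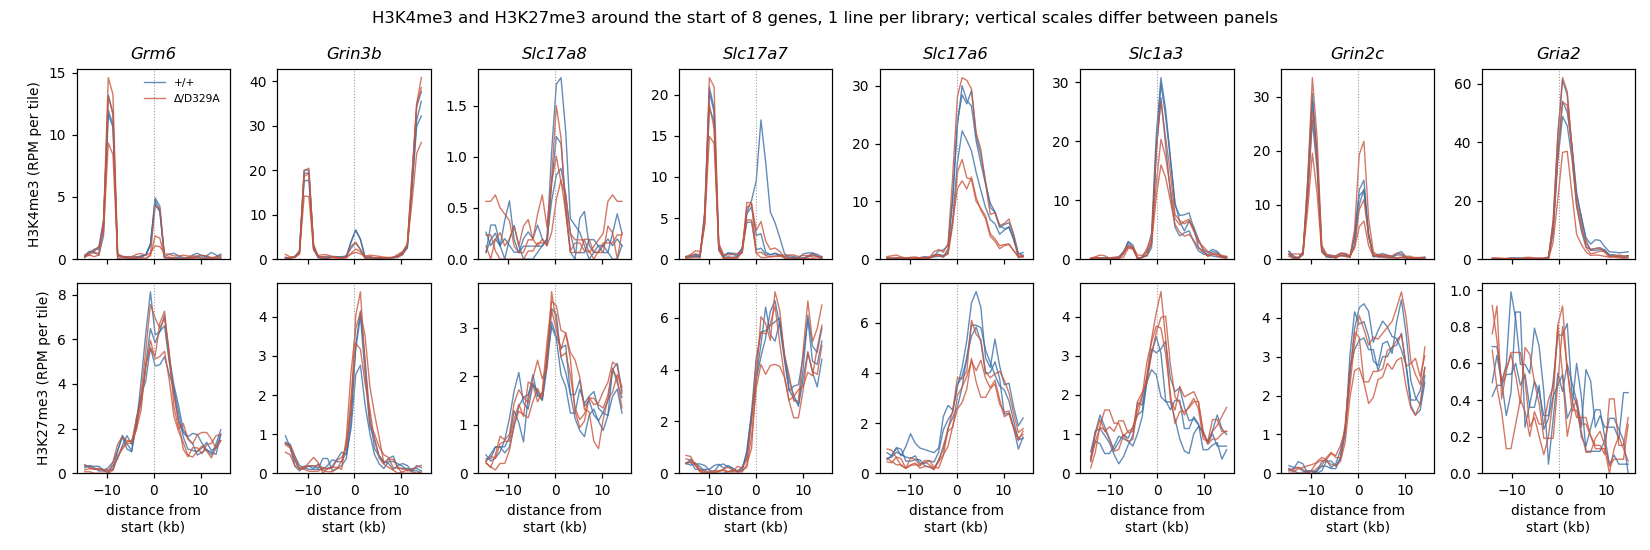
RPM per tile of H3K4me3 (upper row) and H3K27me3 (lower row) against distance from the start (kb) for 8 genes, with 1 line per library (3 +/+, 3 Δ/D329A) and a separate vertical scale in each panel. At Grm6 and Grin3b the start peak of H3K4me3 is lowest in Δ/D329A replicates 1 and 3 (1.07 and 1.87 RPM at Grm6), while replicate 2 reaches 4.26 RPM at Grm6, and at Slc17a7 a single +/+ library reaches 16.9 RPM.

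H3K27me3 separated the set into a few genes with much of it and many with little. Grm6 had the most, at 6.17, 5.22 and 7.16 RPM in +/+ and 5.41, 5.54 and 7.26 in Δ/D329A, which is the 99.2nd percentile of promoters. The groups coincided, with a difference of −0.03 (SE 0.18). Grin2c followed with 4.0, 3.30 and 3.99 RPM in +/+ and 3.56, 2.67 and 3.71 in Δ/D329A, and Slc17a7 with 2.93, 2.94 and 3.42 RPM in +/+ and 3.16, 2.37 and 2.31 in Δ/D329A. Neither differed beyond its spread. Slc17a8 (3.07 RPM), Slc1a3 (2.99), Slc17a6 (2.80), Grik3 (2.35), Grin3b (2.18) and Grin2a (2.0) came next in +/+ means. Slc17a6 and Slc1a3 are among the most expressed of the 31 genes and still carried over 5 times the 0.484 RPM of the median promoter, with H3K4me3 of 15.3 and 11.1 RPM at the same promoters. Input there was 0.946 and 0.742 RPM, and the median promoter had 0.790 RPM of input, more than its H3K27me3. In whole tissue H3K27me3 and H3K4me3 can come from different cells.

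Single promoters differed in both directions. H3K27me3 enrichment was higher in Δ/D329A without overlap at Grin3b, with 2.297, 1.83 and 2.40 RPM in +/+ and 2.82, 2.64 and 3.15 in Δ/D329A, a difference of 0.39 (SE 0.13, limma adjusted p = 0.508). At Slc1a3 the values were 2.58, 3.27 and 3.12 RPM in +/+ and 3.76, 3.32 and 3.55 in Δ/D329A, where the lowest Δ/D329A value just cleared the highest of +/+. Gria3 had 0.60, 0.33 and 0.47 RPM in +/+ and 0.74, 0.73 and 1.04 in Δ/D329A (0.74 on the log2 scale, limma adjusted p = 0.519, edgeR adjusted p = 0.105). Grin2a and Slc1a6 were lower without overlap, by −0.28 and −0.35, and Grm5 was higher at a level of 0.151 RPM in +/+. That makes 6 of 31 promoters without overlap, against 13.6% of all. Grm3 differed by 0.86 (limma adjusted p = 0.516) with overlap, but its input differed as well, by 0.46 without overlap (limma adjusted p = 0.926). Of the 31 promoters 15 were lower, and the median difference was 0.05 against −0.02 for all.

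Over gene bodies, H3K27me3 was highest in Slc17a7 at a +/+ mean of 4.67 RPM (98.7th percentile), followed by Grin2c at 3.08 and Grm6 at 2.51. The body of Slc1a3 was the member closest to a call for this mark, with 0.903, 0.908 and 1.11 RPM in +/+ and 1.36, 1.39 and 1.37 in Δ/D329A. All 3 Δ/D329A libraries lay above all 3 of +/+, and the difference was 0.46 (SE 0.10, limma adjusted p = 0.343, edgeR adjusted p = 0.070). It was between 0.35 and 0.56 in all 14 other ways of fitting. The expression of Slc1a3 differed by −0.11 with a 95% interval of −0.50 to 0.27. In all, 5 of 31 bodies had no overlap in H3K27me3, against 19.7% of all bodies, and 23 of 31 were lower, against 62.9% of all.

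H3K36me3 over bodies was highest in Grin1 (1.93 RPM in +/+) and Grik5 (1.84) and lowest in Slc17a7 (0.371), Grin2c (0.492) and Grm6 (0.531). Grin3b, almost without reads, had 1.05 RPM, in a body that Tmem259 overlaps. The largest difference against its error was at Gria2, with 1.48, 1.415 and 1.32 RPM in +/+ and 1.09, 1.18 and 1.08 in Δ/D329A. The groups did not overlap, and the difference was −0.31 (SE 0.06, limma adjusted p = 0.223). By edgeR, on the reads of every second tile of the body, it was −0.29 at an adjusted p of 0.0204. This passed the threshold of 0.05 in a fit that called 0.788% of 21327 bodies. The H3K36me3 libraries do not form the sets seen in H3K4me3, and a fit with those sets as a block gave −0.29. Input over the body of Gria2 was lower as well without overlap, by −0.08 (limma adjusted p = 0.827), and with input subtracted on the log2 scale the difference was −0.22. Expression of Gria2 differed in the same direction, by −0.24, without passing the test. Gria3 was the other body without overlap, at 0.648, 0.674 and 0.601 RPM in +/+ and 0.516, 0.589 and 0.532 in Δ/D329A. These 2 of 31 stand against 22.0% of all bodies.

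The remaining regions gave little. H3K4me3 over bodies was without overlap in Grik5 and Grik2, 2 of 31 against 6.64% of all, with Grik5 at 1.65, 1.59 and 1.80 RPM in +/+ and 1.30, 1.47 and 1.45 in Δ/D329A (−0.24, limma adjusted p = 1). H3K36me3 at promoters was without overlap in Grin3b alone, 1 of 31 against 11.7% of all, at a level of 0.339 RPM in +/+. Input itself was without overlap in 2 of 31 promoters, against 10.01% of all, and in 6 of 31 bodies, against 11.8% of all.

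Single libraries stood out in some genes, and markers of neighbouring tissue were set beside them. Over the body of Slc17a7, H3K4me3 was 3.75 RPM in +/+ replicate 1 against 0.47 and 0.59 in the other +/+ libraries and 0.37, 0.96 and 0.25 in Δ/D329A. In the same animal the mean H3K4me3 over bodies of cortical markers was 4.60 RPM, against 2.62 and 1.34 in +/+ and 0.889, 1.21 and 1.53 in Δ/D329A. The body of Grm2 had 4.13, 5.80 and 4.72 RPM of H3K4me3 in +/+ and 1.93, 7.41 and 2.01 in Δ/D329A, and the promoter of Slc17a6 had 11.8, 16.7 and 17.5 RPM in +/+ and 10.5, 21.3 and 9.42 in Δ/D329A. In both, replicate 2 of Δ/D329A was highest and replicates 1 and 3 were lowest. Thalamic markers had 0.991, 1.25 and 3.07 RPM over bodies in +/+ and 1.59, 5.73 and 1.14 in Δ/D329A. They were highest in the same library, but lowest in +/+ replicate 1. Replicate 2 of Δ/D329A was also highest for H3K4me3 at promoters of neuron markers, at 20.5 RPM against 11.9 to 19.5 in the others. The part of neighbouring tissue in these values was not tested.

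For some genes the deposited start is not the one in use. The row of Grik1 starts 234082 bp from the most upstream coding start of GENCODE M21 and that of Grm5 18151 bp. H3K4me3 at the deposited starts was 0.131 RPM for Grik1 and 0.506 for Grm5, and at the GENCODE starts 26.4 and 11.2 RPM in +/+. Their promoter values above therefore describe regions inside the genes. Moving all promoters to GENCODE starts called 0 members in any mark. For Grm4 and Grin2d the move went the other way, to starts 8062 and 7450 bp off with 0.594 and 0.544 RPM of H3K4me3 in +/+. Their highest tiles, at 26.5 and 35.8 RPM over both genotypes, lay near the deposited starts.

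The CG content of the promoters was set beside the marks. Of the 31 genes, 22 have an entry in the table of RefSeq promoters and 20 lie within 1500 bp of the deposited start, with a median of 19.5 CG per 300 bases against 7 over 32851 promoters. The 5 promoters with 8 or fewer CG (Grin3b, Slc1a3, Grm6, Slc17a8 and Slc17a6) had 2.18 to 6.19 RPM of H3K27me3 in +/+, with a median of 2.99. The other 15 ranged from 0.375 to 3.76 with a median of 0.851 RPM. The sequences above show both ends, with Grm6 at 4 CG and 6.19 RPM of H3K27me3, and Gria2 at 26 CG and 0.50 RPM. Grik3 departs from this order, with 50 CG and 2.35 RPM, and so do Grin2c (22 CG, 3.76 RPM) and Slc17a7 (13 CG, 3.10 RPM). Over all genes with such a promoter the median H3K27me3 differed in the same direction. It was 0.945 RPM for 5696 promoters with 8 or fewer CG and 0.202 for 9112 with more. The median input over all promoters was 0.790 RPM, so these levels were near or below input. Across the 20 genes, Spearman's rho of CG content was −0.37 with H3K27me3 and 0.41 with H3K4me3, and across 14808 genes it was −0.40 and 0.76. With promoter H3K36me3 it was −0.04 across the 20 genes and −0.42 across all. These are descriptions across genes of the same libraries, which are not independent replicates.

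**Figure D5:**
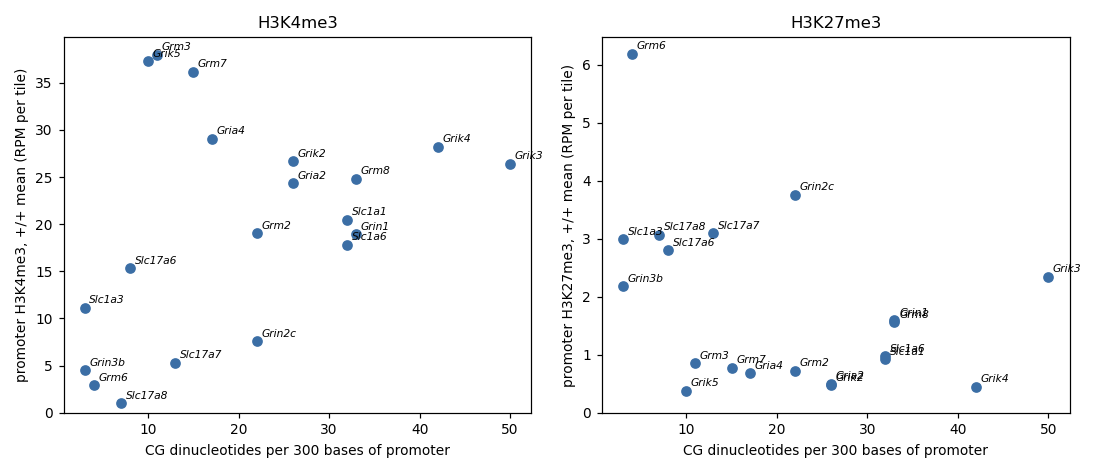
Promoter H3K4me3 (left) and H3K27me3 (right), as +/+ means in RPM (n = 3), against the number of CG dinucleotides per 300 bases of promoter for 20 genes. The 5 genes with 8 or fewer CG all lie above 2 RPM of H3K27me3, together with Slc17a7, Grin2c and Grik3.

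Level and mark went together across the 31 genes as they did across all genes, by description. Pearson's r of +/+ expression was 0.48 with H3K36me3 over bodies, −0.49 with H3K27me3 at promoters and 0.32 with H3K4me3 at promoters, against 0.58, −0.36 and 0.60 over all genes. Across the 29 genes tested, r between the difference in expression and the difference in a mark was 0.21 for H3K4me3, −0.37 for H3K27me3 and −0.31 for H3K36me3 at promoters, and 0.11, −0.16 and 0.48 over bodies. The points share libraries and depth within each assay.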

How the data were processed

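RNA-seq and ChIP-seq values of the adult hypothalamus were used, and bisulfite libraries were not used here. The authors trimmed reads, mapped them to GRCm38, merged reads over the exons of each gene in SeqMonk with correction for length, and deposited log2 RPKM values, in which a library without a read stands at 0.9 reads. For ChIP-seq they deposited a signal over tiles of 2000 bp every 1000 bp, scaled to uniquely mapped reads and without input subtracted. The submitters' processing notes name Trim Galore 0.4.3, HISAT2 2.0.5 and Bowtie2 2.3.2, and the study's methods name other versions and Bowtie. The authors left out 1 further Δ/D329A RNA-seq library of low quality. Libraries were RNA-seq of ribosome-depleted RNA and native ChIP-seq after MNase digestion of a small part of a hypothalamus, which limits the chromatin behind each library. Genotypes were taken from the labels, and 1 animal gave each library.

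For expression, limma 3.58.1 (R 4.3.3) was fitted to the deposited values with a mean-variance trend. Nuclear genes that reached 0.1 RPKM in 4 or more libraries were tested, and calls were made two-sided at a p under 0.01 after Benjamini-Hochberg adjustment. Marks were averaged over the tiles centred in each region, and limma was fitted to log2(RPM + 0.1) across all genes with calls at an adjusted p under 0.05. Fold changes of weak regions are understated on that scale. Whole reads came out of the deposited values in all 25965 rows within 0.02 reads, and in 100% of ChIP-seq tiles within 0.01, and were used for edgeR 4.0.16 with TMM, DESeq2 1.42.0, read numbers and intervals (exact, 95%, for counting error only). For edgeR on the marks, a promoter was the tile nearest the start and a body every second tile, so that tiles did not overlap. Its regions thus differ from those of limma. Differences in expression of single genes were also given an exact permutation test over 126 splits. Fits were tested on simulated data with 200 changed genes or regions, weak ones included, and a spread between animals that was set, not measured. For expression limma recovered 161 at a log2 change of 2. At a log2 change of 1 it recovered 29 H3K4me3, 0 H3K27me3 and 0 H3K36me3 promoters, and 50, 47 and 62 bodies. At a log2 change of 3 it recovered 136, 80 and 87 promoters and 167, 170 and 188 bodies. Promoters were read from RefSeq tables of GRCm38.p6. Summaries used Python 3.11.15 (pandas 2.3.3, numpy 2.4.6, scipy 1.17.1) and plots matplotlib 3.10.9.

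The 31 genes, the lists and the tests were chosen with earlier results of these data known. All 31 genes are named. A gene has each library's value printed where an adjusted p was under 0.05 in any fit, its groups did not overlap in expression, it was the highest or lowest of its class, or it was among the 3 promoters with most H3K27me3. Other values per library were chosen after they were seen. Of the pathway lists, genes past the threshold or else the 2 with the smallest p are named. The marker lists were neurons, astrocytes, oligodendrocytes and their precursors, microglia, endothelial cells, hypothalamic, cortical, striatal and thalamic neurons, anterior pituitary and choroid plexus. Of these, no marker was called, and the summed level ranged in +/+ and Δ/D329A as follows. Neurons had 206 to 413 and 274 to 375 RPKM, oligodendrocytes 289 to 448 and 201 to 376, their precursors 24.4 to 54.5 and 24.3 to 32.9, microglia 12.5 to 24.5 and 15.6 to 22, endothelial cells 13.3 to 28.6 and 17.2 to 22.6, striatal neurons 5.84 to 10.1 and 6.87 to 8.03, pituitary 0.122 to 16.9 and 2.90 to 11.6, and choroid plexus 3.39 to 5.22 and 4.03 to 7.23. Alternatives changed the filter, pseudocount, scaling, library weights, tool, region, input, batch and replicates, and promoters at GENCODE M21 starts were added after the data had been seen.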

Additional observations from a re-analysis of the deposited data

Results flagged for a closer look

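The expression of Slc1a3 in Δ/D329A replicate 2 was 4.90 log2 RPKM, while the other 3 Δ/D329A libraries lay between 5.11 and 5.14. It stood apart from its group by a gap of 0.847 of the whole range, above Dixon's critical value of 0.829 for 4 samples. This was 1 of 62 groups examined in this way, and chance alone flags about 1 in 20. The same library had the fewest reads on genes, 3874084, and its median over the genes tested was 0.91 log2 RPKM.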

How the results depend on the processing

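Counts of members past the threshold were 0 in expression and in all 6 combinations of mark and region, and they were recomputed under 108 alternatives, of which 106 left them as they were. With promoters under 0.2 RPM left out, 2 members were called for H3K4me3 (Grin3b and Grm6), and by edgeR 1 was called for H3K36me3 over bodies (Gria2). Leaving out each replicate in turn gave 0 to 0 members in every measure. Of 3251 single values recomputed, 315 changed sign, none of them a called one, and 3 were called under an alternative. Counts over all genes moved more. For expression the main 19 (15 higher) became 35 at a threshold of 0.05, 11 with a filter of 0.5 RPKM, 34 (22 higher) with median centring, 32 (16 higher) with quantile normalization, 34 with library weights, 77 (40 higher) by edgeR, 76 (40 higher) with DESeq2 size factors, 251 (133 higher) by DESeq2 and 11 to 18 without 1 library, lowest without Δ/D329A replicate 4 (11) and replicate 1 (12). For H3K4me3 promoters the 0 became 28 with centring, 45 by edgeR and 268 with the filter, and for bodies 4 with centring, 1 with input subtracted and 44 with the filter. For H3K27me3 promoters it became 54 with centring, 216 by edgeR and 217 with the filter, and for bodies the 2 became 36 by edgeR and 0 or 1 otherwise. H3K36me3 promoters went from 6 to between 0 and 19, highest without Δ/D329A replicate 1, and bodies from 0 to 168 by edgeR and 0 to 4 without 1 library. Centring moved the median of all H3K36me3 promoters from 0.11 to −0.10. With the replicate number as a block, 0 members were called in every measure, 16 genes in expression and 0 regions over all marks. Deviations of libraries with the same number correlated at between −0.05 and 0.14 in RNA-seq and −0.22 and 0.22 in H3K4me3 promoters. Libraries with different numbers spanned −0.19 to 0.15 and −0.39 to 0.34 there. In H3K27me3 promoters the same number gave 0.03 to 0.09 and different numbers −0.08 to 0.02. In H3K36me3 bodies the same number gave 0.016 to 0.040 and different numbers −0.036 to 0.006. These values do not decide whether the numbers pair the animals. Depth limits Grm6, Grin3b and Slc17a8, with at most 5, 5 and 37 reads per library, and 3 animals a genotype limit the marks.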
